A study of Homo sapiens with 6 samples.

Results

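The cytoplasmic ribosomal protein genes encode the proteins that, together with ribosomal RNA, make up the ribosome of the cytosol. Expression of these genes was compared between HepG2 cells, a human hepatoma line, that were left untreated and HepG2 cells given 50 µg/ml of the water extract of B. racemosa leaf (BLE) for 24 h. There were 3 arrays of each group, labelled as biological replicates, and nothing in the labels says whether they came from separate cultures, so the tests measure only the spread between these arrays. No vehicle or second agent is named for either group, and all 6 RNA samples came from the same cell line, so the values describe this line at 1 concentration and 1 time point.

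Members were taken by symbol, as the genes named RPL, RPLP, RPS or RPSA with a number where one applies, without S6 kinases, Y-linked genes and pseudogenes, and with exactly 1 symbol in the annotation of the array. A transcript cluster is the set of probes that the Affymetrix Human Gene 1.0 ST array summarises as 1 value. Of 99 matching rows, 8 were 0 on every array and were left out. The other 91 clusters stood for 63 genes, and for the 18 genes with more than 1 cluster the cluster with the highest mean was used. The 63 genes were tested among 19291 clusters of 18372 genes. They comprise 41 genes of the large (60S) subunit and 22 of the small (40S) subunit. Of the 84 protein-coding genes of RefSeq that match the names, 21 were therefore not measured as members, among them RPLP0, RPL4, RPL13A, RPS18, RPS27A and RPSA.

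Ribosomal proteins are made in near equal amounts, imported into the nucleus and assembled onto ribosomal RNA in the nucleolus, and proteins left without a partner are degraded. Most of their mRNAs begin with a C followed by a run of pyrimidines, the 5′ terminal oligopyrimidine (TOP) tract, through which the kinase mTOR and the RNA-binding protein LARP1 control their translation. Liver cells, which secrete large amounts of plasma protein, carry many ribosomes. An array reads the mRNA level and not its translation.

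The start of the transcript was read from the RefSeq promoter table (GRCh38.p14), which held windows for 52 of the 63 genes. RPL23, RPL23A, RPL30, RPL39L, RPL3L, RPL5, RPL7, RPL8, RPS15A, RPS2 and RPS20 had none. A C at the annotated start followed by at least 4 bases that are each C or T, on the transcribed strand, was present at 1 or more starts of 37 genes, 71.2% of the 52, against 5.14% of all 27305 genes in the table. Counted over windows, because some genes have several starts, the shares were 58.7% of 63 and 4.07% of 35116. The following windows hold 10 bases before the start and 16 from the start on, with the unbroken pyrimidine run in capitals. They are shown for some of the genes with low, high and small differences described below, and for paralogs with and without the tract. RPL12, which had the smallest difference, is not among them.
RPL26 (chr17:8383178-8383203, minus strand): gcgtgtagttCTCTTCCCTTTTgcgg
RPL35 (chr9:124861942-124861967, minus strand): cgcctacttcCTCTTTCCCTCggagc
RPLP2 (chr11:809957-809982, plus strand): tcggcgccttCCTTTTCCTCCCTgtc
RPL18 (chr19:48619163-48619188, minus strand): agcccgttctCTCTTTCCggacctgg
RPS25 (chr11:119018328-119018353, minus strand): gcagcgcttcCTTTTTgtccgacatc
RPL22 (chr1:6199580-6199605, minus strand): cgctcacctcCCTTTCTaactccgct
RPL22L1 (chr3:170870180-170870205, minus strand): ccgtagcttcCTCTCTgctctcgcgg
RPS27 (chr1:153990752-153990777, plus strand): cgctttcgctCCTTTCCggcggtgac
RPS27L (chr15:63157462-63157487, minus strand): gatgccgagcgcagatcgcttgcagc
RPL7L1 (chr6:42879606-42879631, plus strand): gtgcggcgccgtagctaggagcggac
The paralogs RPS27L and RPL7L1 have no such tract at the annotated start, whereas RPL22L1 has one, as RPL22 does.

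Other promoter motifs were counted in windows of 250 bases before to 50 after the start, on both strands. CCGGAAG, a core of the ETS factor site, was present in 38.1% of the windows of member genes and 10.3% of all windows. AAGATGGC, a core of the YY1 site, was present in 7.94% and 2.89%, and TATAAA in 9.52% and 11.5%. On the other strand CCGGAAG reads CTTCCGG, which can overlap the pyrimidine tract. These are matches of letters and not measured sites.

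The values are log2 expression values as deposited. Of the 9 hepatoma markers examined, 8 were measured and had untreated means of 7.88 to 11.3, with ALB at 11.1 and AFP at 10.4, while HNF4A had no row with a single symbol. The defining blood cell genes PTPRC and CD3E had means of 2.52 to 3.25, although LYZ, of the same list, was at 10.5 in untreated cells. The 4 fibroblast genes had means of 2.61 to 4.43 and the squamous genes KRT5 and KRT14 of 3.21 to 4.24, all with groups that overlapped, and 0 genes of these marker lists passed the adjustment in limma, while TTR, a hepatoma marker, was higher by 0.19 at an unadjusted p of 0.042 with groups apart. The 357 clusters of olfactory receptor genes, which a hepatoma line should not express, had a median of 2.76 to 2.86 depending on the array. Levels of different clusters depend on their probes, so the levels of different genes are not ranked against each other.

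No ribosomal protein gene passed the adjustment or the thresholds of the series' design. Their mean was a little lower after BLE in 54 of the 63 genes, with a median log2 difference of -0.12 and a middle range of -0.21 to -0.058. Over all tested clusters the mean was lower in 46.9% and higher in 53.1%, and the median log2 difference was 0.011. Single differences ran from -0.51 for RPL26 to 0.20 for RPL3L, which is at most 1.43 fold. From limma, 0 of the 63 genes had an adjusted p under 0.05 (background 0.00518%, 1 cluster), the adjusted p-values being 0.38 to 0.99. The series' design asked for a 1.5-fold change besides an unadjusted p under 0.05, and 0 genes met both (background 0.840%, of which 0.570% lower and 0.270% higher). At an unadjusted p under 0.05 alone, 10 genes were lower (background 5.90%) and 0 higher (background 3.87%). Analysis of variance, the test named in the series' design, gave 14 lower (3.67% of all clusters) and 2 higher (2.48%) at an unadjusted p under 0.05 and 0 after adjustment. In bulk RNA of this kind, fewer cells and less RNA per cell cannot be told apart, and an equal loss of all mRNA would not be seen.

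The size of a change that these arrays could have missed is given by the 95% intervals of the differences. For 55 of the 63 genes the interval lay within 1.5 fold in both directions. It reached a 1.5-fold decrease for RPL26, RPL7L1, RPS20, RPS27L, RPL10, RPL5, RPL32 and RPL8, and a 1.5-fold increase for 0 genes. Of the differences, 25 were within 0.1 of 0 on the log2 scale, 18 were lower by 0.1 to 0.2, 17 by 0.2 or more and 3 were higher by 0.1 or more.

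**Figure D1:**
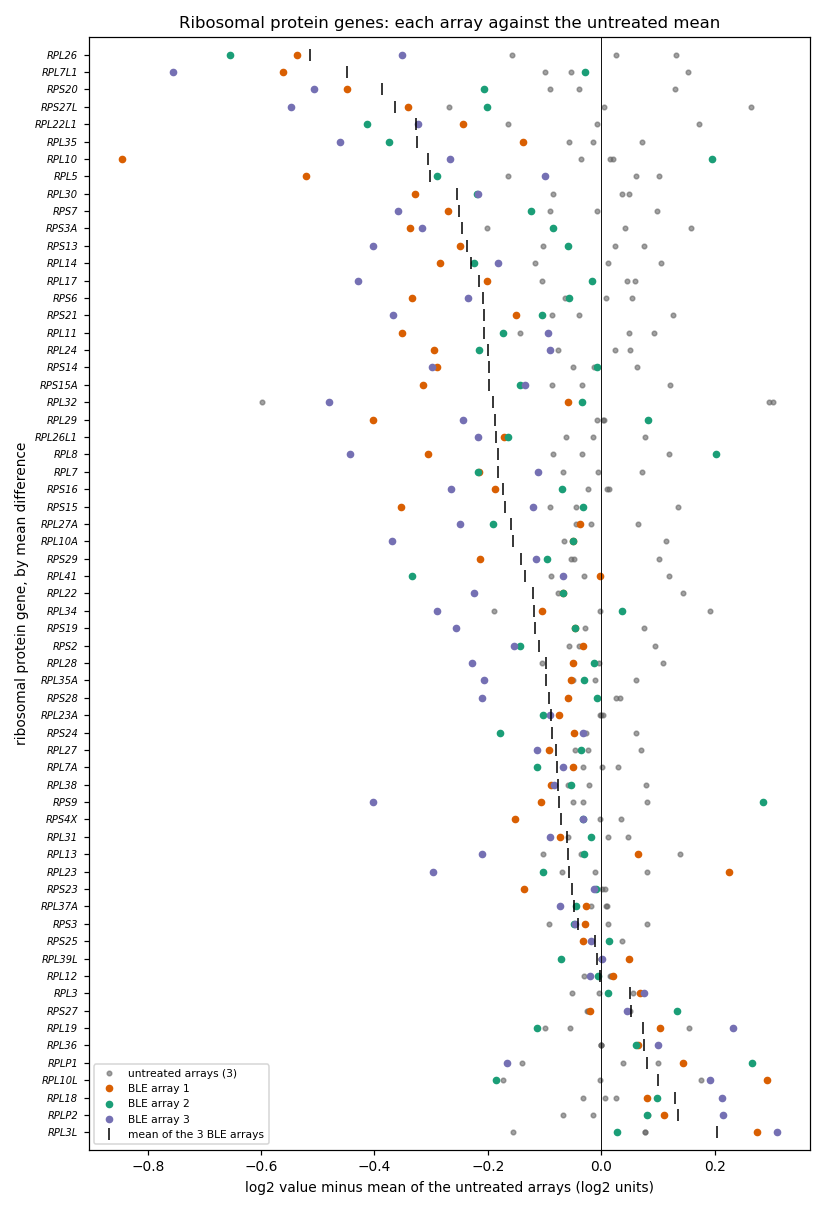
Log2 value of each array minus the mean of the 3 untreated arrays (x axis, log2 units) for the 63 ribosomal protein genes (y axis, ordered by the mean difference). Grey points are untreated arrays, coloured points are BLE arrays and black ticks are means of the 3 BLE arrays. The ticks run from -0.51 for RPL26 to 0.20 for RPL3L, and 54 of the 63 lie below 0.

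The groups did not overlap for 19 genes, against a background of 13.5%. In 17 of these all BLE arrays were lower (background 7.41%) and in 2, RPL18 and RPL36, all were higher (background 6.14%). These background shares cover the whole table, in which 10817 of 19291 clusters had a mean level under 4, while only 4 of the ribosomal protein genes did. The difference between BLE and untreated cells went with the level over all genes. Among clusters of other genes the median log2 difference was 0.048 at a level under 4, -0.028 from 4 to 6, -0.12 from 6 to 8, -0.11 from 8 to 10 and -0.095 at 10 or more. The corresponding medians of ribosomal protein genes were 0.046 (4 genes), -0.16 (11 genes), -0.060 (13 genes), -0.17 (17 genes) and -0.10 (18 genes).

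At a level of 10 or more, 17 of 18 ribosomal protein genes had a lower mean after BLE, and so had 82.1% of 84 other clusters. From 8 to 10, 16 of 17 had a lower mean, beside 76.9% of 863 other clusters. Groups lay apart with BLE lower in 5 of the 18 and 7 of the 17 genes, where the shares of other clusters were 21.4% and 23.9%. At an unadjusted p under 0.05, 3 of 18 and 5 of 17 genes were lower, where the shares were 14.3% and 19.0%. From 6 to 8, 3 of 13 genes lay apart with BLE lower (19.8% of other clusters) and 1 was lower at that p (17.7%). From 4 to 6 the counts were 1 and 0 of 11 genes (9.47% and 8.06%), and under 4 they were 1 and 1 of 4 genes (2.14% and 1.10%), this gene being RPL22L1. The part of the level in the difference of the ribosomal protein genes was not tested.

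**Figure D2:**
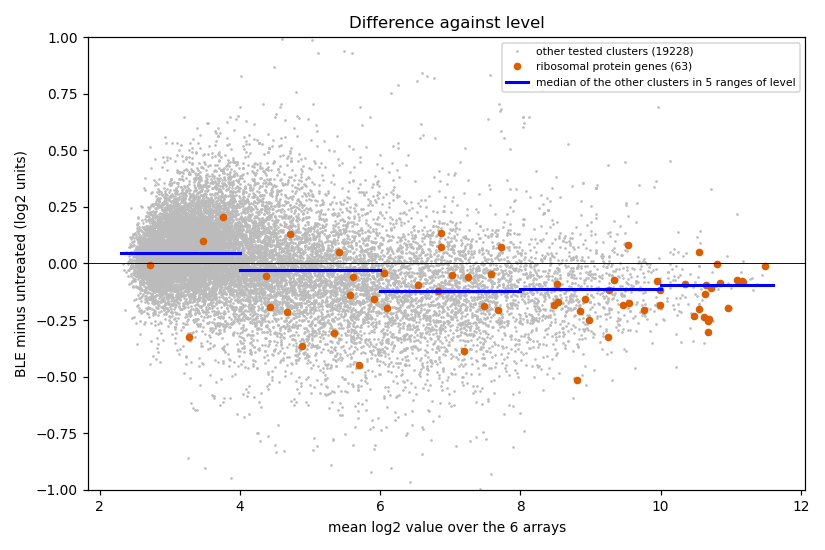
Difference between BLE and untreated cells (y axis, log2 units) against the mean log2 value over the 6 arrays (x axis) for 19228 other clusters (grey) and the 63 ribosomal protein genes (orange). Blue lines are medians of the other clusters in 5 ranges of level, from 0.048 at a level under 4 to -0.095 at 10 or more; 16 clusters lie outside the plotted range.

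The BLE arrays were not alike. Taking each array against the untreated mean, the median over the 63 genes was -0.091 on BLE array 1, -0.054 on BLE array 2 and -0.18 on BLE array 3, and it was 0.0026, -0.032 and 0.011 on the untreated arrays. Other clusters with a level of 8 or more, 947 in number, had medians of -0.16, -0.017 and -0.14 on the same 3 BLE arrays. BLE array 2 was the nearest to untreated cells in both sets, and the median over all tested clusters was within 0.002 of 0 on every array. BLE array 3 was below all untreated arrays for 45 of the 63 genes, BLE array 1 for 39 and BLE array 2 for 27. The counts of genes at an unadjusted p under 0.05 and the shares of all clusters both moved when arrays were left out, not always in the same direction. Without untreated array 2, 12 genes were lower (4.73% of all clusters) and 0 higher (2.44%) in limma, where all arrays together gave 10 (5.90%) and 0 (3.87%). Without BLE array 2, 18 genes were lower (11.7% of all clusters) and 1 higher (8.28%). Without untreated array 3, 5 were lower (3.77%) and 0 higher (2.62%). With array 2 as the only BLE array, 3 were lower (4.46%) and 2 higher (8.15%), the median was -0.054, and the lone array was assumed to vary like the untreated ones.

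**Figure D3:**
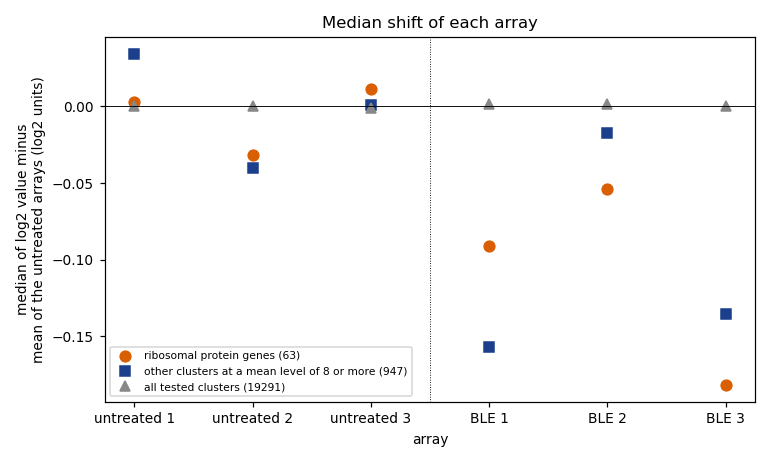
Median, over genes, of the log2 value minus the mean of the untreated arrays (y axis, log2 units) for each of the 6 arrays (x axis). Orange circles are the 63 ribosomal protein genes, blue squares 947 other clusters at a level of 8 or more and grey triangles all 19291 clusters. BLE array 2 lies nearest to the untreated arrays, at -0.054 for ribosomal protein genes.

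The median difference depended on the normalization. After quantile normalization of the deposited values, 42 of the 63 genes were lower, with a median of -0.057, and 50.7% of all clusters were, with a median of -0.0027. After centring each array on its median 56 were lower, with a median of -0.18, and 64.7% of all clusters were, with a median of -0.054. Centring moved all genes alike, so the median of the ribosomal protein genes minus that of all clusters was -0.13 both as deposited and after centring, while it was -0.054 after quantile normalization. For the 35 genes with a level of 8 or more, quantile normalization moved the median from -0.16 to -0.066 and that of the 947 other clusters from -0.11 to -0.014.

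**Figure D4:**
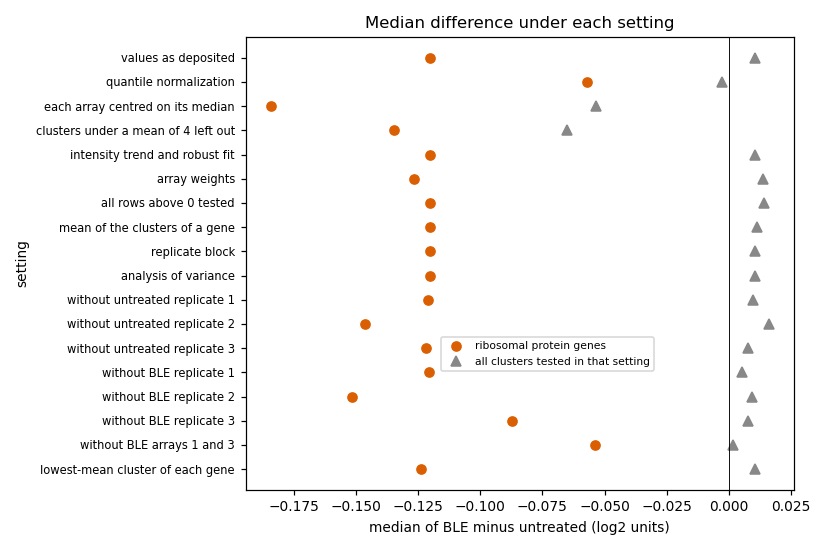
Median difference between BLE and untreated cells (x axis, log2 units) under each setting (y axis) for the ribosomal protein genes (orange circles) and all clusters tested in that setting (grey triangles). The median of the ribosomal protein genes was below 0 in every setting drawn, from -0.18 after centring on the median to -0.054 with array 2 as the only BLE array.

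Among the 41 large subunit genes the mean was lower in 33 and higher in 8, with a median log2 difference of -0.12. RPL26, a protein at the rim of the exit tunnel through which the new chain leaves the ribosome, had the lowest difference of all members. Its log2 values were 9.09, 8.90 and 9.19 on the untreated arrays and 8.52, 8.41 and 8.71 on the BLE arrays. The BLE values were all lower, and the difference was -0.51 with a standard error (SE) of 0.11 and an adjusted p of 0.38 in limma. Leaving out any 1 array gave differences of -0.60 to -0.44, and it passed the thresholds of the series' design without untreated array 2 and without BLE array 3.

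RPL35, which also lies at the tunnel exit, had values of 9.35, 9.48 and 9.39 in untreated cells and 9.27, 9.03 and 8.95 after BLE. BLE array 1 lay just below the lowest untreated array, and the difference was -0.32 (SE 0.10, limma adjusted p = 0.47). The other 3 proteins of this site were RPL23A, RPL31 and RPL19, with differences of -0.089, -0.06 and 0.074. RPL23A, to which the signal recognition particle docks, read 10.40, 10.40 and 10.40 on the untreated arrays and 10.32, 10.30 and 10.31 on the BLE arrays, so its groups were apart although the difference was small (adjusted p = 0.59 from limma), and it was at 0.0028 after quantile normalization. Its second cluster, at a mean level of 4.81, was also lower on all BLE arrays, with a difference of -0.27 (SE 0.087, limma adjusted p = 0.48). Of the 3 tunnel wall proteins listed, only RPL17 was measured, at -0.22 with groups that overlapped.

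RPL5 and RPL11 form, with 5S ribosomal RNA, a particle that also binds the p53 ligase MDM2 when assembly is disturbed. For RPL5 the untreated arrays read 10.89, 10.66 and 10.93 and the BLE arrays 10.31, 10.54 and 10.73. BLE array 3 lay inside the untreated range, and the difference was -0.30 (SE 0.13, limma adjusted p = 0.51). The other clusters of RPL5, at mean levels of 5.21 and 10.0, were lower on all BLE arrays. Their differences were -0.36 (SE 0.085, limma adjusted p = 0.39) and -0.17 (SE 0.10, limma adjusted p = 0.56). RPL11 had 9.92, 9.73 and 9.96 in untreated cells and 9.52, 9.70 and 9.78 after BLE, with overlap and a difference of -0.21 (SE 0.10, limma adjusted p = 0.52).

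RPLP1 and RPLP2 are the acidic proteins of the stalk, which recruits the elongation factors, and both had higher means after BLE. The untreated values of RPLP2 were 6.78, 6.73 and 6.88 and the BLE values 6.90, 6.87 and 7.01, with BLE array 2 just below the highest untreated array. Its difference was 0.13 (SE 0.073, limma adjusted p = 0.55). RPLP1 had 9.59, 9.53 and 9.35 untreated and 9.63, 9.76 and 9.32 after BLE, with BLE array 3 as the lowest of the 6, and a difference of 0.081 (SE 0.13, limma adjusted p = 0.81). RPLP0, the base of the stalk, was not measured by a row with a single symbol.

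RPL18 and RPL36 were the only members with every BLE array above every untreated array. RPL18 read 4.61, 4.65 and 4.67 in untreated cells and 4.72, 4.74 and 4.86 after BLE, a difference of 0.13 (SE 0.067, limma adjusted p = 0.53). RPL36 was at 6.83 on all 3 untreated arrays and at 6.89, 6.89 and 6.93 after BLE, a difference of 0.075 (SE 0.057, limma adjusted p = 0.63). Its 3 untreated values were the same number, and RPL39L was the other member of which this was true. At least 2 arrays shared a value in 11 of the 63 genes (17.5%), and in 41.1% of all clusters, which narrows the spread measured for such a gene.

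RPL10, which joins the large subunit last and is needed for its release into translation, had the widest spread of any BLE group. The untreated arrays read 5.52, 5.51 and 5.46, while the BLE arrays read 4.65, 5.69 and 5.23. BLE array 1 was far below and BLE array 2 above the untreated arrays, and the difference was -0.31 (SE 0.24, limma adjusted p = 0.64), or -0.036 without BLE array 1. The deposited table holds the same 6 values in a second row that gives RPL10 beside another symbol. RPL30 had values of 10.84, 10.71 and 10.85 untreated and 10.47, 10.58 and 10.58 after BLE, with no overlap and a difference of -0.26 (SE 0.072, limma adjusted p = 0.45). RPL14, RPL24 and RPL7 were also lower with groups apart, by differences of -0.23, -0.20 and -0.18 and adjusted p-values of 0.51 from limma.

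**Figure D5:**
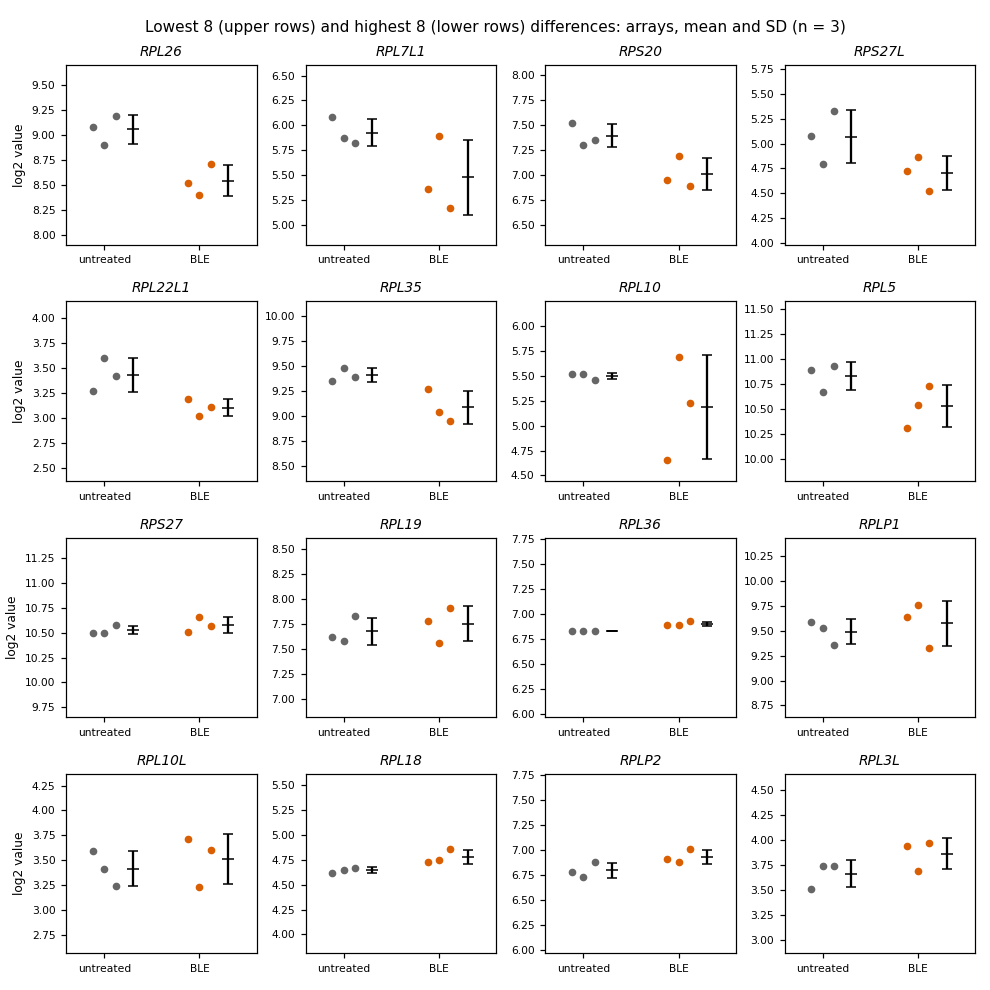
Log2 values (y axis) of the 3 untreated (grey) and 3 BLE arrays (orange) for the 8 genes with the lowest and the 8 with the highest difference, with mean and SD (n = 3) beside the points. Each panel spans the same height in log2 units. Groups are apart for RPL26, RPS20, RPL22L1 and RPL35 (BLE lower) and for RPL36 and RPL18 (BLE higher), and overlap in the other 10.

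Some ribosomal proteins have paralogs that can take their place or that serve other tissues. RPL7L1, a relative of RPL7, had 6.08, 5.87 and 5.83 in untreated cells and 5.37, 5.90 and 5.17 after BLE. BLE array 2 lay within the untreated range and the other two far below it, and the difference was -0.45 (SE 0.19, limma adjusted p = 0.51). Without BLE array 2 it was -0.66 and passed the thresholds of the series' design. RPL7 itself had values of 10.15, 10.01 and 10.07 untreated and 9.86, 9.86 and 9.97 after BLE, which did not overlap.

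RPS27L, a p53 target beside its partner RPS27, read 5.07, 4.80 and 5.33 on the untreated arrays and 4.73, 4.86 and 4.52 on the BLE arrays. The groups overlapped through BLE array 2, and the difference was -0.36 (SE 0.15, limma adjusted p = 0.51). RPS27 had 10.50, 10.50 and 10.57 untreated and 10.51, 10.66 and 10.57 after BLE, which overlapped and differed by 0.053 (SE 0.069). The difference between the paralogs was not tested.

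RPL22L1, the paralog of RPL22, had 3.27, 3.60 and 3.42 in untreated cells and 3.19, 3.02 and 3.11 after BLE. All BLE arrays were lower and the difference was -0.33 (SE 0.10, limma adjusted p = 0.48), but the values were close to background. RPL22 read 7.03, 6.82 and 6.81 untreated and 6.82, 6.82 and 6.66 after BLE, with overlap and a difference of -0.12 (SE 0.09, limma adjusted p = 0.63). RPL26L1, a near copy of RPL26, had 8.50, 8.64 and 8.55 untreated and 8.39, 8.40 and 8.35 after BLE, with no overlap and a difference of -0.18 (SE 0.066, limma adjusted p = 0.51). Its second cluster, at a mean level of 5.20, gave -0.26.

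The tissue-restricted paralogs were near background. RPL3L, a gene of heart and skeletal muscle, had 3.51, 3.74 and 3.74 in untreated cells and 3.94, 3.69 and 3.97 after BLE, with overlap and a difference of 0.20 (SE 0.11, limma adjusted p = 0.54), the highest of all members. RPL3, its partner, had 5.38, 5.44 and 5.33 untreated and 5.45, 5.39 and 5.45 after BLE, a difference of 0.051. RPL10L, a retrogene of the testis, read 3.59, 3.41 and 3.24 untreated and 3.71, 3.23 and 3.61 after BLE, a difference of 0.10. RPL39L was at 2.72 on every untreated array and at 2.77, 2.65 and 2.72 after BLE, below the median of the olfactory receptor clusters on each array.

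Of the 22 small subunit genes the mean was lower after BLE in 21, with a median log2 difference of -0.16, and only RPS27 was higher. RPS20, a protein of the head of the subunit, had the lowest difference, with 7.52, 7.30 and 7.35 in untreated cells and 6.94, 7.18 and 6.88 after BLE. The groups were apart and the difference was -0.39 (SE 0.11, limma adjusted p = 0.44). RPS7, which can also bind MDM2, had 9.09, 9.01 and 9.20 untreated and 8.83, 8.98 and 8.74 after BLE, a difference of -0.25 (SE 0.089, limma adjusted p = 0.51), and its second cluster gave -0.026. The 4 others with BLE arrays all below the untreated ones were RPS21, RPS15A, RPS16 and RPS29, with differences of -0.21, -0.20, -0.17 and -0.14 and adjusted p-values of 0.51 to 0.54 from limma.

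RPS6, the substrate of the S6 kinases downstream of mTOR, read 8.90, 8.97 and 9.01 on the untreated arrays and 8.63, 8.90 and 8.72 on the BLE arrays. BLE array 2 overlapped with the untreated arrays by a narrow margin, and the difference was -0.21 (SE 0.089, limma adjusted p = 0.51). The proteins at the entry and exit of the mRNA channel, RPS2, RPS3 and RPS28, had differences of -0.11, -0.041 and -0.092, all with overlap, of which RPS3 and RPS28 turned to 0.059 and 0.018 after quantile normalization. RPS25, a protein of the subunit head that some viral and cellular mRNAs need for internal initiation, read 11.48, 11.48 and 11.53 untreated and 11.46, 11.51 and 11.48 after BLE, and its difference of -0.012 (SE 0.059) was among the 3 closest to 0.

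Ribosomal protein genes in which mutations cause Diamond-Blackfan anaemia, a failure of red cell production, were spread over this range. Of 19 genes listed, 15 were measured, 13 with a lower mean (46.9% of all clusters), 3 lower at an unadjusted p under 0.05 (5.90%) and 0 higher (3.87%). All 15 had a level of 4 or more. In the ranges from 4 up, 56.7% to 82.1% of other clusters had a lower mean and 8.06% to 19.0% were lower at that p. The 15 genes had a median log2 difference of -0.12, as over all members. RPL26, RPL35 and RPS7 had the smallest p, and RPS19, the first gene named in the disease, had 9.39, 9.27 and 9.29 untreated and 9.27, 9.27 and 9.06 after BLE, a difference of -0.12.

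Several ribosomal protein genes serve as reference genes in quantitative PCR, and 3 of 6 listed here were measured. RPL30 is given above. RPL19 had 7.63, 7.58 and 7.84 in untreated cells and 7.78, 7.57 and 7.91 after BLE, a difference of 0.074 (SE 0.11, limma adjusted p = 0.81), with array 2 as the lowest BLE array. RPL32 read 3.92, 4.82 and 4.81 untreated and 4.46, 4.48 and 4.04 after BLE, where untreated array 1 was the lowest of all 6 and the difference was -0.19 (SE 0.27, limma adjusted p = 0.79). Without untreated array 1 the difference of RPL32 was -0.49, and without BLE array 3 it was -0.046.

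The 37 genes with a pyrimidine tract at an annotated start had a median log2 difference of -0.12 and the 15 with a window but no tract one of -0.16. Of the former, 32 had a lower mean and 5 were lower at an unadjusted p under 0.05, and of the latter 12 and 2, where the shares of all clusters were 46.9% and 5.90%. At levels of 4 or more, 56.7% to 82.1% of other clusters had a lower mean and 8.06% to 19.0% were lower at that p. The 11 genes without a window had a median of -0.18. No order among these groups was tested. The tract was read only at annotated starts, so a gene counted as without it may have it at a nearby base. For example, an annotated start of RPL19 is a T inside a run of pyrimidines.

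Beyond the members, 2 further genes of ribosomal proteins were measured. FAU, which encodes RPS30 joined to a ubiquitin-like protein, had 8.01, 7.94 and 7.81 in untreated cells and 7.76, 7.81 and 7.60 after BLE, a difference of -0.20 (SE 0.088, limma adjusted p = 0.51). RPL36AL, a paralog of RPL36A, was at 10.18 on all untreated arrays and at 10.14, 10.16 and 9.92 after BLE, a difference of -0.11 (SE 0.083, limma adjusted p = 0.63). RACK1 and RPS27A had no row above 0 with a single symbol.

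Other mRNAs with a TOP tract encode translation factors and further proteins. Of 20 such genes listed, among them NPM1, HNRNPA1, NAP1L1 and TPT1, 19 were measured. A lower mean after BLE was found in 17 (46.9% of all clusters). Of the 19, 1 had a level under 4. At levels of 4 or more, 56.7% to 82.1% of other clusters had a lower mean. At an unadjusted p under 0.05, 1 of the 19 was lower (5.90% of all clusters) and 0 higher (3.87%), and the median log2 difference of the 19 was -0.093. NACA, a subunit of the complex that meets nascent chains at the tunnel exit, had 10.41, 10.39 and 10.38 untreated and 10.08, 10.18 and 10.28 after BLE, with no overlap and a difference of -0.22 (SE 0.073, limma adjusted p = 0.50). EIF3E, an initiation factor subunit, and PABPC1, the poly(A) binding protein, had differences of -0.29 and -0.19 with overlap. EEF1A1 and EEF2, the main elongation factors, had -0.10 and -0.019.

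Of 12 regulators of TOP mRNAs measured, 0 were lower (5.90% of all clusters) and 0 higher (3.87%) at an unadjusted p under 0.05. After adjustment the count was 0, and the median log2 difference was -0.076. EIF4EBP1, the repressor of cap-dependent initiation that mTOR inactivates, read 5.14, 5.07 and 5.40 in untreated cells and 4.63, 5.14 and 4.75 after BLE, with overlap and a difference of -0.36 (SE 0.15, limma adjusted p = 0.51). RHEB, which activates mTOR, and LARP4 had differences of -0.14 and -0.20 by the highest-mean cluster, on which the counts of this list also rest. The mean over the clusters of RHEB gave -0.46, so its value depends on the cluster taken. LARP1 had -0.07 and MTOR 0.05, the latter with BLE values all slightly above the untreated ones.

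Importins and dedicated chaperones carry ribosomal proteins to the nucleolus. The 12 genes listed for them also include NACA and BTF3, which are not importins or dedicated chaperones. All 12 were measured and had a lower mean after BLE (46.9% of all clusters). Of other clusters, 56.7% had a lower mean at levels of 4 to 6, and 75.5% to 82.1% in the ranges above. At an unadjusted p under 0.05, 5 of the 12 were lower (5.90% of all clusters), 0 after adjustment, and the median log2 difference was -0.13. In the ranges from 4 up, 8.06% to 19.0% of other clusters were lower at that p. NACA, given above in the list of TOP mRNAs, is among the 5, and BTF3 is in both lists. BCCIP, a chaperone of RPL23, had 7.55, 7.10 and 7.21 in untreated cells and 6.79, 6.89 and 6.33 after BLE, with no overlap and a difference of -0.62 (SE 0.18, limma adjusted p = 0.47). With all arrays BCCIP passed the thresholds of the series' design (unadjusted p = 0.013 in limma), as did 0.570% of all clusters in the lower direction. LTV1, which acts in the assembly of the small subunit, had 9.01, 8.97 and 9.21 untreated and 8.77, 8.60 and 8.91 after BLE, a difference of -0.30 (SE 0.11, limma adjusted p = 0.51). The importins IPO5 and IPO9 had differences of -0.23 and -0.24, while KPNB1 and TNPO1 had -0.033 and -0.034.

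For the 18 genes with several clusters, the choice of cluster mattered to the value but seldom to its sign. In 14 of them the clusters had differences of 1 sign, and in RPL27A, RPL29, RPS2 and RPS27 both signs occurred. RPS3A, with 5 clusters, had differences of -0.28 to -0.13. The 3 clusters of RPL5 gave -0.36 to -0.17 at mean levels of 5.21 to 10.7, the lowest from the dimmest cluster, and the 4 of RPL12 -0.13 to -0.0017. Taking the cluster with the lowest mean gave a median of -0.12 over the 63 genes and 10 lower genes at an unadjusted p under 0.05. Ribosomal protein genes have many near-identical pseudogenes, and which copies a cluster reads is not given in the sources used here.

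Many ribosomal protein genes carry small nucleolar RNAs in their introns. By position in the reference table, which gives no strand, 37 such genes lie inside members, and 18 were measured, with a median log2 difference of -0.083. Of the 18, 12 had a mean level under 4, close to background. At an unadjusted p under 0.05, 5 were lower (5.90% of all clusters) and 0 higher (3.87%), 0 after adjustment. Of other clusters, 1.10% were lower at that p at a level under 4 and 8.06% from 4 to 6. SNORD36B, inside RPL7A and at a dim untreated mean of 3.65, had a difference of -0.64 (adjusted p = 0.38 from limma) where RPL7A had -0.077. SNORD21, inside RPL5, had -0.62 and SNORD4B, inside RPL23A, -0.44, beside -0.30 and -0.089 for the highest-mean clusters of their host genes. The lowest-mean clusters of these host genes were at -0.36 and -0.27, so the distance to the host depends on the cluster taken, and it was not tested. SNORD54, inside RPS20 and at a dim untreated mean of 3.61, had a difference of -0.615. With all arrays, SNORD36B, SNORD21 and SNORD54 passed the thresholds of the series' design (0.570% of all clusters, lower). Their unadjusted p-values in limma were 0.0030, 0.0049 and 0.011.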

How the data were processed

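RNA of 3 untreated and 3 BLE-treated HepG2 samples was measured on the Affymetrix Human Gene 1.0 ST array. The deposited values are log2 expression values that, per the labels, the authors made with GCOS, Partek and RMA. Their versions and the genome build of the array annotation were not given in the labels or methods. RMA scales arrays to each other, so a change shared by all genes cannot be seen, but array medians over the tested clusters still ran from 3.71 to 3.83. Clusters were named through the platform annotation, in which 19291 rows above 0 have 1 symbol, 1735 have several and 7803 have none. Of 33297 rows, 4468 were 0 on every array and were left out.

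Groups and replicate numbers came from the sample titles. BLE and untreated arrays were compared in R 4.3.3 with limma 3.58.1 (lmFit and eBayes, 2 groups, no covariate), with Benjamini-Hochberg adjustment over all 19291 clusters, also after a check on simulated data. The number of arrays limits the precision. The members and lists were chosen with earlier results of these data known. Genes were named as the 8 highest and 8 lowest differences, those at the highest, middle and lowest level, stalk, 5S particle, paralog and reference genes, and, for each further gene list apart from the cell type markers, its 3 genes of lowest p; other genes named were chosen after their values were seen. The alternatives were quantile normalization, centring on the median, a minimum level of 4, array weights, robust fitting with a trend on intensity, all rows above 0, the mean of a gene's clusters, a replicate block, analysis of variance and leaving out each array. The cluster with the lowest mean, leaving out BLE arrays 1 and 3 together, and the count at an unadjusted p under 0.05 were added after seeing the data. Transcript starts came from RefSeq (GRCh38.p14). Rows with several symbols were not used in the main comparison. They entered the setting with all rows above 0, from which the values under other observations come, and the quantile normalization.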

Additional observations from a re-analysis of the deposited data

How the results depend on the processing

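No ribosomal protein gene had an adjusted p under 0.05 in any of the settings run, and the median difference was below 0 in each. The median was -0.057 after quantile normalization, -0.18 after centring each array on its median and -0.054 without BLE arrays 1 and 3, and -0.15 to -0.087 when 1 array was left out. The number of genes with groups apart, 19 as deposited (13.5% of all clusters), was 13 after quantile normalization (16.3%) and 29 after centring (20.6%). It was 35 without BLE arrays 1 and 3 (49.0%), and 22 to 41 without 1 array (19.3% to 36.7%). After quantile normalization, 7 genes were lower at an unadjusted p under 0.05 in limma (5.38% of all clusters). The number lower at an unadjusted p under 0.05, 10 as deposited (5.90% of all clusters), was 22 after centring (9.72%), 19 with array weights (8.11%), 3 without BLE arrays 1 and 3 (4.46%), and 5 to 18 without 1 array (2.91% to 11.7%). The number past the thresholds of the series' design was 1 without BLE arrays 1 and 3 and 0 to 1 without 1 array. That gene was RPL26 without untreated array 2, without BLE array 3 and without BLE arrays 1 and 3 (-0.59, -0.60 and -0.65), and RPL7L1 without BLE array 2 (-0.66, adjusted p = 0.090 from limma). The cause of these moves was not tested.

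Of the 44 genes named by rule, small differences turned sign after quantile normalization in RPS25 (0.0088), RPL23A (0.0028), RPS28 (0.018) and RPS3 (0.059), in RPS27 (-0.011) and RPL3 (-0.013) after centring, and in RPL39L with array weights (0.0053). Without 1 array the differences ran from -0.025 to 0.0063 for RPS25, -0.011 to 0.20 for RPLP1, -0.035 to 0.025 for RPL39L and -0.0049 to 0.17 for RPL19. Without BLE arrays 1 and 3, RPL10 was at 0.19, RPL19 at -0.11, RPL10L at -0.19, LARP4 at 0.099 and RPS25 at 0.015.

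With the replicate number as a block (replicate block), the median stayed at -0.12, 7 genes were lower at an unadjusted p under 0.05 (4.95% of all clusters) and 0 after adjustment or past the thresholds. Deviations of same-numbered arrays correlated at -0.11, -0.18 and 0.12, and 2 of 6 arrays correlated best with their own number, so the numbers were not taken to pair the samples. Groups apart has no value under the block or analysis of variance. Signal close to background limits RPL22L1, RPL3L, RPL10L and RPL39L.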

Other observations

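Rows that name a ribosomal protein gene beside another symbol, such as a small nucleolar RNA or a second gene, belong in no count above. There were 47 such rows above 0, of which 45 were distinct in value, and they hold the only rows of several genes that were not measured as members. The mean was lower after BLE in 44 (45.6% of all rows above 0) and higher in 3, with a median log2 difference of -0.17 and a range of -0.59 to 0.16, where the median over all 28829 rows above 0 was 0.014. At an unadjusted p under 0.05 in limma, 12 were lower (4.89% of all rows above 0) and 0 higher (3.68%), and 0 passed the adjustment (lowest adjusted p = 0.44). All 3 BLE arrays were below the untreated arrays in 17 of these rows (6.44% of all rows above 0) and above them in 0 (5.72%). The 47 rows had mean levels of 3.08 to 10.9. Among single-symbol clusters of other genes, the share with a lower mean was 33.1% at a level under 4 and 82.1% at 10 or more.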
